A study of Mus musculus with 18 samples.

Results

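The transcripts of 10 genes of the circadian clock and its direct output were described in the livers of mice given vehicle, GDF15 or pair-feeding. The genes were chosen by name, as 10 of the 16245 genes in the count table, and every one of them passed the filter on low counts. They were the activators Clock and Npas2, the repressors Per1, Per2, Per3 and Cry1, the nuclear receptors Nr1d1 and Nr1d2 (REV-ERBα and REV-ERBβ), and the output transcription factors Dbp and Tef. Bulk RNA was sequenced from 18 livers of wild-type C57BL/6 mice, 6 per group. By the study's methods all were male, of the C57BL/6J background and killed in the fed state. All 3 groups had been moved to a NASH diet, rich in fat and fructose, which leads to a steatotic and fibrotic liver, and to housing at about 29 °C at 8 weeks of age. By the methods, mice were kept in groups and then housed singly when sorted into treatment groups before dosing. GDF15, a hormone released under cell stress that curbs appetite, was injected subcutaneously once a day in the morning, 1 to 2 h into the light phase. The labels list a range of doses and none per mouse, and the study's text and a figure legend differ on the dose of these livers, so no dose is given here. Pair-fed mice were offered on each day what the GDF15-treated mice had eaten on the day before. The clock time of harvest is not given in the sources used here, so each liver is a single point at an unknown time of its cycle.

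In the clock of mammalian cells, CLOCK or its paralogue NPAS2 pairs with BMAL1 (encoded by Arntl) and switches on genes that carry an E-box, among them the Per, Cry, Nr1d, Dbp and Tef genes. PER and CRY proteins then shut off the pair that induced them, and REV-ERB proteins repress Arntl, Npas2, Clock and Cry1 through ROR elements, so that the arms of the loop peak at opposite times of day. DBP and TEF, with HLF, are PAR bZip factors that carry the rhythm to D-box genes of liver metabolism, where NFIL3 opposes them. In liver the rhythm follows feeding time, temperature and glucocorticoids as well as the brain clock.

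Elements of these kinds were searched for in the promoters of the genes, and some of the stretches that held a match are shown here. Nr1d1, Dbp and Npas2 held no match, so none is shown for them. RefSeq promoters (GRCm38.p6) were given for 9 of the 10 genes, 13 promoters in all, with none for Per2. The 250 bases before each start site were searched on both strands. The E-box CACGTG was in 4 of the 13 promoters and in 6.02% of 32851 promoters of all genes. The D-box, as TTATGTAA or TTACGTAA, was in 1 of the 13 and in 0.931% of all promoters. AGGTCA, the core of a ROR element, was in 3 of the 13 (Clock, Nr1d2 and Per1) and in 14.0% of all promoters. The first 4 lines below hold an E-box, the next holds a pair of D-boxes and the last holds AGGTCA, each in capitals and 5′ to 3′ along the strand of the gene.
Cry1, chr10:85185089-85185134, - strand: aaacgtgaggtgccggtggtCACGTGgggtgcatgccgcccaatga
Per1, chr11:69098763-69098808, + strand: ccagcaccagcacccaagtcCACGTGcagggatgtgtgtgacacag
Tef, chr15:81802534-81802563, + strand: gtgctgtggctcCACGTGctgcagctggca
Tef, chr15:81811256-81811301, + strand: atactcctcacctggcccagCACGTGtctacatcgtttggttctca
Per3, chr4:151044796-151044890, - strand: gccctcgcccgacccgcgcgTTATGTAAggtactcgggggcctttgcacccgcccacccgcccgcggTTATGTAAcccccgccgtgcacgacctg
Nr1d2, chr14:18239158-18239203, - strand: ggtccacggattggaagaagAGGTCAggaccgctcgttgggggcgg
The E-box of Cry1 began 60 bases before its start site, in intergenic sequence by the GENCODE M21 annotation. The E-box of Per1 began 166 bases before the start of a shorter transcript and lay in an intron of the longer one. The Tef E-boxes began 127 and 138 bases before its 2 starts, the former in an annotated untranslated exon, overlapping an exon of the antisense gene Gm17597, and the latter in a Tef intron. The D-boxes of Per3 began 205 and 158 bases before its start, within an intron of the overlapping gene Camta1, and the Nr1d2 element lay 77 bases before its start in intergenic sequence. A match describes letters only. No D-box or E-box of these spellings was found in the searched window of Dbp, Npas2, Nr1d1, Nr1d2 or Clock, which says nothing of elements elsewhere.

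The values below are estimated read counts divided by the size factor of the library (normalized counts), which compare mice but not genes, since they are not divided by transcript length. Libraries held 16508864 to 35301853 counts, and 3 counts, taken as the detection floor for counting error, were worth 1.74 to 3.90 normalized counts. Only Npas2 came near it, with 4 to 96 raw counts per library. The markers of liver were present in every sample. None of 7 hepatocyte, 8 macrophage, 8 stellate cell, 8 endothelial cell, 6 cholangiocyte or 7 lymphocyte markers was at 0 in any library. A gene was called different at a DESeq2 Wald adjusted p (Benjamini-Hochberg over all genes) under 0.05. The mice of a group are separate samples by their labels. In bulk tissue, fewer cells of a type and less RNA per cell cannot be told apart.

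Of the clock transcripts, Cry1 and Nr1d1 were called between groups. Against vehicle, Cry1 was 1.63-fold and Nr1d1 1.31-fold higher with GDF15, so 2 of the 10 genes were called higher and 0 lower, where 15.8% of all genes tested were higher and 17.5% lower. The members' median log2 fold change was 0.37, beside 0.00 for all genes tested, and 9 of the 10 fold changes were positive. Against pair-fed mice, 1 of the 10 was called higher (Nr1d1, 1.47-fold) and 0 lower, where 13.3% and 13.8% of all genes were, and the median was 0.13. None passed both an adjusted p under 0.05 and an absolute log2 fold change above 1, the study's criteria for liver, which 6.27% and 3.37% of all genes passed in these comparisons. Between pair-fed and vehicle mice 0 of the 10 were called by DESeq2 (0% of all genes were) or by the quasi-likelihood test of edgeR, while 2 of the 10 (Per2 and Cry1) had an unadjusted p under 0.05 with DESeq2 and 2 with edgeR, where 4.42% of all genes did with DESeq2. The GDF15 comparisons share the GDF15 mice and the control comparisons share a control group, so their values are not independent.

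**Figure D1:**
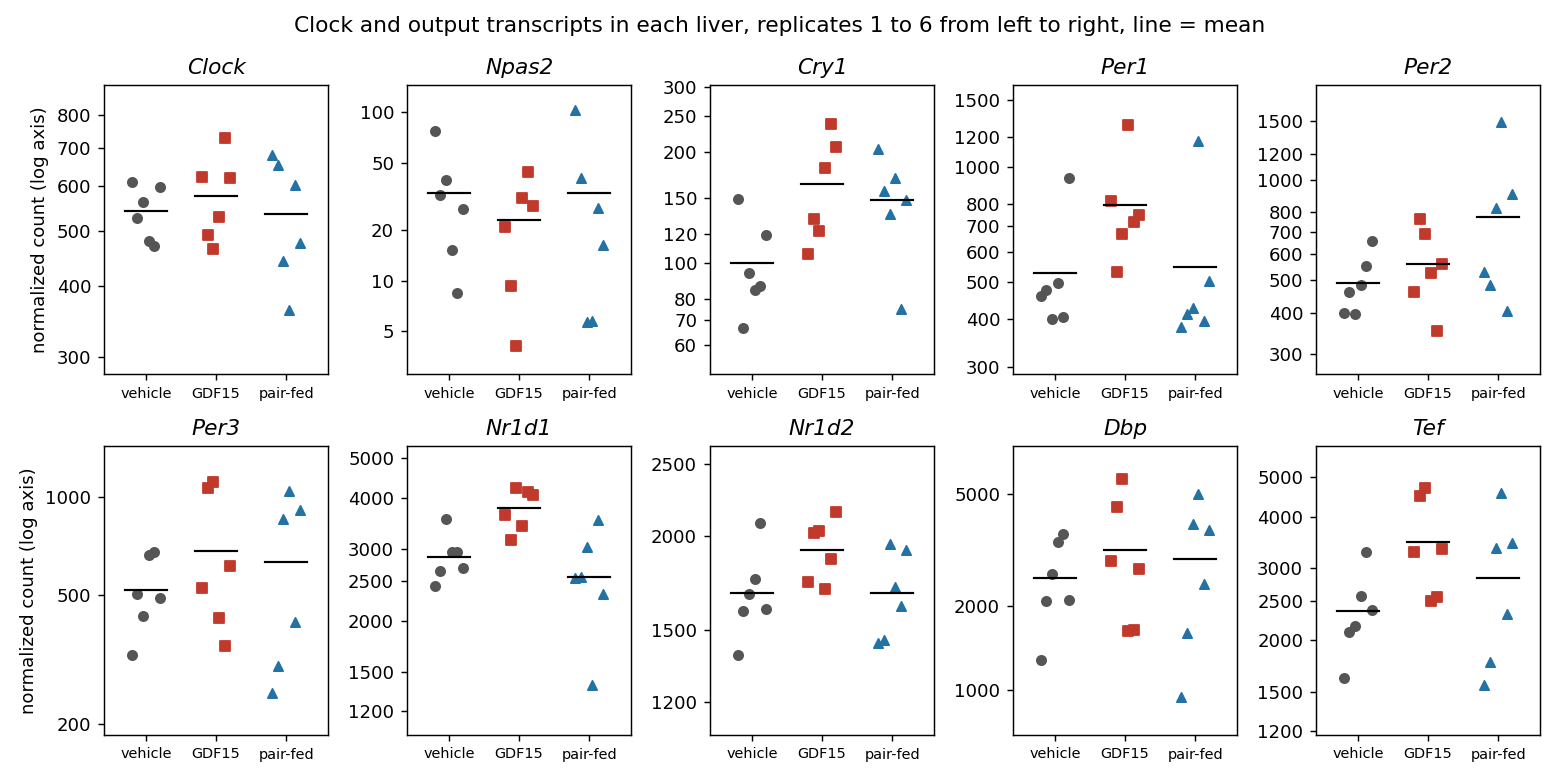
Normalized counts (log axis) of the 10 clock and output genes in each liver of the vehicle, GDF15 and pair-fed groups (6 points per group, replicates 1 to 6 from left to right, horizontal line at the mean). Nr1d1 was higher in 4 of the 6 GDF15 livers than in every vehicle liver, while the Dbp and Npas2 values of the 3 groups overlapped throughout.

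Of the activators, Clock was the steadier. Clock (CLOCK, the DNA-binding partner of BMAL1; ENSMUSG00000029238) ran from 471 through a median of 544 to 610 normalized counts in vehicle livers, from 464 through 574 to 727 with GDF15 and from 362 through 539 to 679 in pair-fed livers. The groups overlapped, and the log2 difference of GDF15 from vehicle was 0.09 ± 0.15 (SE, n = 6 per group, DESeq2 adjusted p = 0.685), with a 95% interval of -0.20 to 0.37. Npas2 (ENSMUSG00000026077), the paralogue of Clock, ran from 8.48 through 29.5 to 77.7 in vehicle livers, from 4.09 through 24.3 to 44.2 with GDF15 and from 5.68 through 21.7 to 103 in pair-fed livers. Its lowest and highest livers differed 9.16-fold, 10.8-fold and 18.2-fold within these groups. The group difference was smaller than that spread, at -0.55 ± 0.70 for GDF15 against vehicle (adjusted p = 0.583) and -0.54 ± 0.70 against pair-fed mice (adjusted p = 0.613). These intervals, -1.93 to 0.82 and -1.91 to 0.84, leave room for a large difference either way.

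Among the repressors, Cry1 was the gene called higher with GDF15. CRY1 is the strongest repressor of the CLOCK and BMAL1 pair and is itself a REV-ERB target. Cry1 (ENSMUSG00000020038) had 149, 66.7, 94.3, 84.9, 86.9 and 119 normalized counts in vehicle mice 1 to 6. It had 106, 132, 122, 181, 238 and 206 with GDF15, and 204, 157, 136, 170, 75.3 and 148 in pair-fed mice. GDF15 mice 4, 5 and 6 lay above every vehicle mouse, and 5 of the 6 pair-fed mice lay within the GDF15 range. GDF15 exceeded vehicle by 0.71 ± 0.24 log2 units (164 ± 52.3 against 100 ± 29.3, mean ± SD, n = 6; DESeq2 adjusted p = 0.0129, edgeR adjusted p = 0.0317). It did not differ detectably from pair-fed mice (148 ± 42.6; 0.14 ± 0.24, adjusted p = 0.695). Pair-fed mice exceeded vehicle by 0.56 ± 0.24, which did not pass (DESeq2 adjusted p = 0.998). The call against vehicle was lost without GDF15 mouse 5 (0.57, adjusted p = 0.0570).

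Per1 stood out by its control mice. Per1, an immediate-responding clock gene that glucocorticoids and cAMP also induce (ENSMUSG00000020893), had 461, 478, 401, 497, 406 and 937 normalized counts in vehicle mice 1 to 6. It had 382, 413, 428, 1171, 395 and 504 in pair-fed mice, and 817, 532, 670, 1287, 720 and 751 with GDF15. All 6 GDF15 livers were above 5 of the 6 livers of either control group, and vehicle mouse 6 and pair-fed mouse 4 were the exceptions. With all mice the difference was 0.59 ± 0.31 from vehicle (DESeq2 adjusted p = 0.133) and 0.54 ± 0.31 from pair-fed mice (adjusted p = 0.193), and neither passed. A fit of the 12 vehicle and GDF15 samples alone called the former (0.59, adjusted p = 0.0358). The like fit of the GDF15 and pair-fed samples did not call the latter (0.54, adjusted p = 0.220). Without vehicle mouse 6 the former was 0.83 (adjusted p = 0.00746), and without pair-fed mouse 4 the latter was 0.91 (adjusted p = 3.51e-04). Without GDF15 mouse 4, which had the highest Per1, they were 0.40 (adjusted p = 0.341) and 0.35 (adjusted p = 0.431).

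Per2 and Per3 did not pass in any comparison. Per2 (ENSMUSG00000055866), a core repressor that also responds to temperature and feeding, ran from 396 through 472 to 656 in vehicle livers, from 352 through 544 to 763 with GDF15 and from 404 through 676 to 1493 in pair-fed livers. It had the largest difference between the controls among the 10 genes, at 0.66 ± 0.26 for pair-fed against vehicle (DESeq2 adjusted p = 0.998), with 3 of 6 pair-fed mice above all vehicle mice. The value of GDF15 against pair-fed mice was -0.47 ± 0.26 (adjusted p = 0.165). With a mouse left out it ran from -0.60 to -0.17, the latter (DESeq2 adjusted p = 0.593) without pair-fed mouse 4, whose 1493 was the highest value. Per3 (ENSMUSG00000028957), which is not needed for the core loop but is strongly rhythmic in liver, ran from 327 through 498 to 680 in vehicle livers, from 349 through 569 to 1114 with GDF15 and from 250 through 636 to 1043 in pair-fed livers. Its group differences of 0.40 ± 0.37 (GDF15 against vehicle, adjusted p = 0.436) and 0.11 ± 0.37 (against pair-fed mice, adjusted p = 0.857) were near their errors.

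Nr1d1 was called in both GDF15 comparisons. It encodes REV-ERBα, a haem-binding repressor of Arntl and of lipid genes (ENSMUSG00000020889). Vehicle mice 1 to 6 had 2435, 2648, 3552, 2958, 2951 and 2695 normalized counts, pair-fed mice had 2551, 2558, 3037, 1390, 3526 and 2327, and GDF15 mice had 3626, 3157, 4236, 3418, 4141 and 4070. GDF15 mice 1, 3, 5 and 6 exceeded every mouse of either control group, and GDF15 mice 2 and 4 lay within the control ranges. The difference was 0.56 ± 0.16 from pair-fed mice (3775 ± 439 against 2565 ± 719, mean ± SD, n = 6; DESeq2 adjusted p = 0.00291, edgeR adjusted p = 0.0120). It kept its call in every fit that left out 1 mouse, being 0.43 (adjusted p = 0.00181) without pair-fed mouse 4, whose value was the lowest. From vehicle (2873 ± 387) the difference was 0.39 ± 0.16 (DESeq2 adjusted p = 0.0388), and this call was lost with edgeR (adjusted p = 0.0586) and in 9 of the 12 fits that left out 1 mouse (adjusted p up to 0.0996). Nr1d2 (ENSMUSG00000021775), the paralogue, was the steadiest member, at 1385 to 2083 (median 1636) in vehicle livers, 1700 to 2158 (median 1942) with GDF15 and 1438 to 1954 (median 1663) in pair-fed livers. Its differences of 0.19 ± 0.10 from vehicle (adjusted p = 0.131) and 0.19 ± 0.10 from pair-fed mice (adjusted p = 0.149) did not pass, though the former was called without vehicle mouse 5 (0.26, adjusted p = 0.0238).

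Neither output factor was called in any comparison. Dbp (ENSMUSG00000059824), the classical E-box target with a large daily amplitude in liver, had 1271, 2070, 2597, 3375, 3603 and 2098 normalized counts in vehicle mice 1 to 6. It had 2885, 4516, 5696, 1616, 1637 and 2694 with GDF15 and 941, 1595, 3927, 5005, 2398 and 3745 in pair-fed mice. The ranges of the groups overlapped widely. The differences of 0.34 ± 0.39 from vehicle (DESeq2 adjusted p = 0.532) and 0.11 ± 0.39 from pair-fed mice (adjusted p = 0.864) were within their errors. With a mouse left out they ran from 0.09 to 0.48 and from -0.14 to 0.33. Tef (ENSMUSG00000022389) ran from 1619 through 2270 to 3293 in vehicle livers, from 2499 through 3313 to 4714 with GDF15 and from 1554 through 2840 to 4586 in pair-fed livers. GDF15 mice 2, 3 and 6 were above all vehicle mice, and the difference of 0.57 ± 0.26 did not pass (DESeq2 adjusted p = 0.0810). It passed without vehicle mouse 5 (0.69, adjusted p = 0.0190) or GDF15 mouse 5 (0.64, adjusted p = 0.0338), with genes of few counts left out (0.56, adjusted p = 0.0463) and in the 12 samples compared (0.57, adjusted p = 0.0103). The Tef difference from pair-fed mice was 0.29 ± 0.26 (adjusted p = 0.433).

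**Figure D2:**
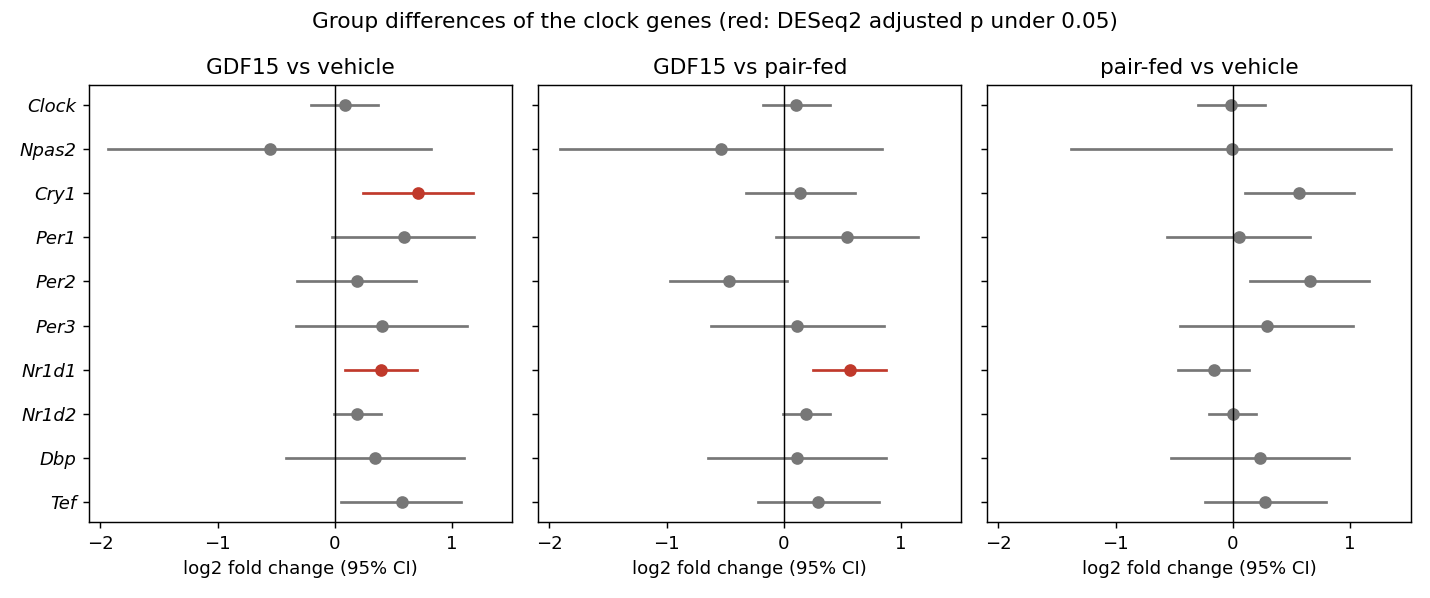
Log2 fold changes with 95% confidence intervals of the 10 genes for GDF15 against vehicle, GDF15 against pair-fed and pair-fed against vehicle (DESeq2, n = 6 per group, red where the adjusted p is under 0.05). Cry1 (0.71) and Nr1d1 (0.39) are red in the first panel and Nr1d1 (0.56) in the second, and the intervals of Npas2 are the widest.

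The spread between mice of a group was large for most clock genes. On the scale of log2(normalized count + 1), the SD within groups, pooled over the 3 groups, was 1.28 for Npas2, 0.75 for Dbp and 0.69 for Per3. These exceeded the SD of 99.6%, 97.7% and 97.0% of the 12883 genes whose normalized count averaged 10 or more. Per1 (0.50), Per2 (0.49), Tef (0.46) and Cry1 (0.45) followed, then Nr1d1 (0.30), Clock (0.27) and Nr1d2 (0.18). The median of the 10 was 0.48, beside 0.17 for all 12883 genes. The group accounted for 2.51% of the variance of Dbp, 3.66% of that of Npas2 and 3.85% of that of Per3, but for 45.1% of that of Nr1d1 and 34.6% of that of Cry1, beside a median of 26.4% over all genes.

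Pair-fed mice were the most spread. The median SD of the 10 genes was 0.37 in the vehicle group, 0.41 with GDF15 and 0.61 in the pair-fed group, whereas the medians over all genes were 0.15, 0.18 and 0.16. The SD was larger in the pair-fed than in the vehicle group for 9 of the 10 genes and larger than in the GDF15 group for 10 of the 10. The genes move together and the difference in spread between groups was not tested. Leaving out each mouse in turn moved the median SD between 0.28 and 0.40 in the vehicle group, between 0.37 and 0.46 with GDF15 and between 0.51 and 0.67 in the pair-fed group, the lowest pair-fed value being without mouse 4. Pair-fed libraries 1 to 3 and 4 to 6 also differed in depth (17180057 to 17926397 and 25047723 to 35301853 counts), and the part of depth in the spread was not tested.

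**Figure D3:**
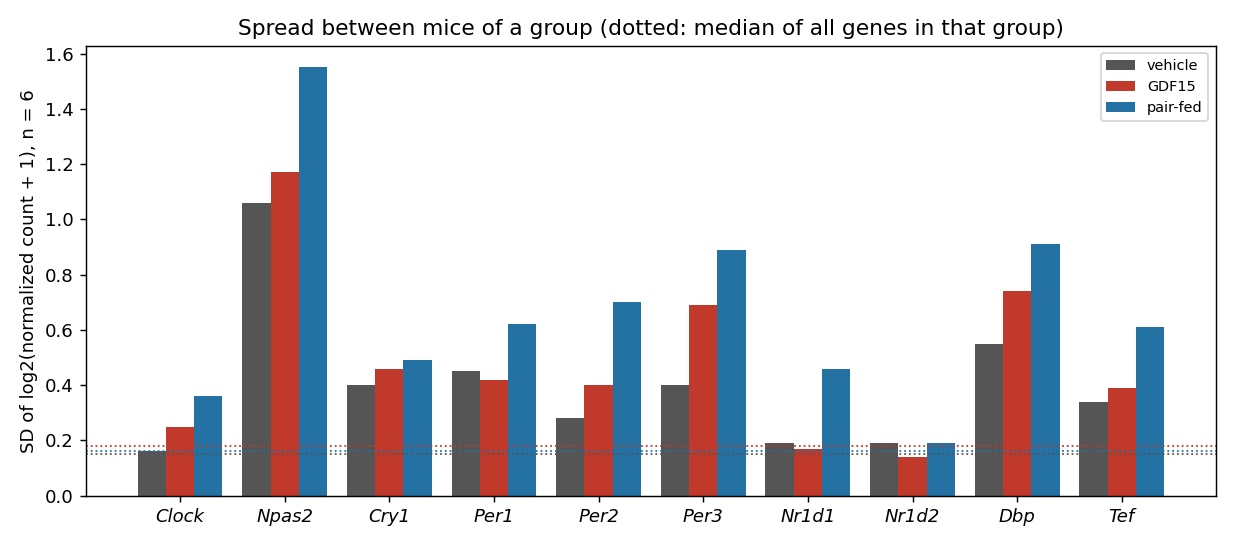
SD between the 6 mice of each group, on the log2(normalized count + 1) scale, for each clock gene, with dotted lines at the median SD of all genes in the same group. Pair-fed bars are the tallest for 9 of the 10 genes, up to 1.55 for Npas2, while Nr1d2 (0.14 to 0.19) sits at the level of all genes.

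The spread had a direction, with Dbp and Npas2 at its opposite ends. The log2 ratio of Dbp to Npas2 (each with 1 added) ran from 3.17 in pair-fed mouse 1 to 10.13 in GDF15 mouse 3. It spanned 4.01 to 8.57 in vehicle mice (SD 1.58), 5.18 to 10.13 with GDF15 (SD 1.89) and 3.17 to 9.53 in pair-fed mice (SD 2.44), so the ranges of the 3 groups overlapped. Pair-fed mouse 1 had 941 Dbp and 103 Npas2 normalized counts, while pair-fed mouse 4 had 5005 and 5.77. Arntl, the partner gene of Clock and Npas2, was at 273 and 12.4 in the same pair of mice.

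Deviations of the mice from their group means tied the genes of either arm together. Over the 18 mice Dbp went with Tef (r = 0.96, rho = 0.93) and Per3 (r = 0.96, rho = 0.92) and against Npas2 (r = -0.95, rho = -0.93). For each of these, r and rho had a permutation p of 1e-05, the smallest that 100000 shuffles within groups can give, and an adjusted p of 7.27e-05 over 80 gene pairs. Without the 2 mice farthest from the median of Dbp, these r were 0.96, 0.94 and -0.92. Within the vehicle, GDF15 and pair-fed groups (6 mice each) the r of Dbp with Npas2 was -0.91, -0.95 and -0.96. Clock, whose range was small, also ran against Dbp (r = -0.84, rho = -0.86, permutation p = 2.00e-04 and 9.00e-05, -0.80 without the 2 mice). Nr1d2 (r = 0.77, rho = 0.81, permutation p = 6.00e-04 and 2.50e-04) and Per2 (r = 0.70, rho = 0.70, permutation p = 0.00629 and 0.00488) ran with it, at 0.76 and 0.69 without the 2 mice.

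The r of Cry1, Nr1d1 and Per1 with Dbp did not pass the same test. The r of Dbp was -0.48 with Cry1 (rho = -0.50, permutation p = 0.0708 and 0.0499, adjusted p = 0.165), -0.14 with Nr1d1 (rho = 0.09, permutation p = 0.680 and 0.754) and 0.09 with Per1 (rho = 0.01, permutation p = 0.779 and 0.981). Without the 2 mice farthest in Dbp they were -0.35, -0.22 and 0.02. The groups ran different ways beneath these pooled values. In the vehicle, GDF15 and pair-fed groups (6 mice each) the r of Dbp was 0.66, -0.01 and -0.39 with Nr1d1, -0.22, -0.69 and 0.65 with Per1, and -0.63, -0.71 and -0.23 with Cry1, and these differences were not tested. At the other end, Cry1 had an r of 0.43 with Npas2 (rho = 0.55, permutation p = 0.107 and 0.0280, adjusted p = 0.237). With Arntl it was 0.39 (rho = 0.53, permutation p = 0.153 and 0.0339, adjusted p = 0.299). GDF15 mice 4, 5 and 6, with the highest Cry1 of their group, had its lowest Dbp to Npas2 ratios (log2 5.67, 5.18 and 6.55). The part of the axis in the Cry1 difference was not tested. Nr1d1 and Per1 had an r of -0.64 (rho = -0.40, permutation p = 0.0296 and 0.124, adjusted p = 0.0816), which rested on few mice, as it was -0.28 without the 2 mice farthest in Nr1d1. Pair-fed mouse 4 combined the lowest Nr1d1 (1390) with the highest pair-fed Per1 (1171) and the highest Per2 of all mice (1493). Of the 45 pairs among the 10 genes, 13 had an absolute r of at least 0.8.

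**Figure D4:**
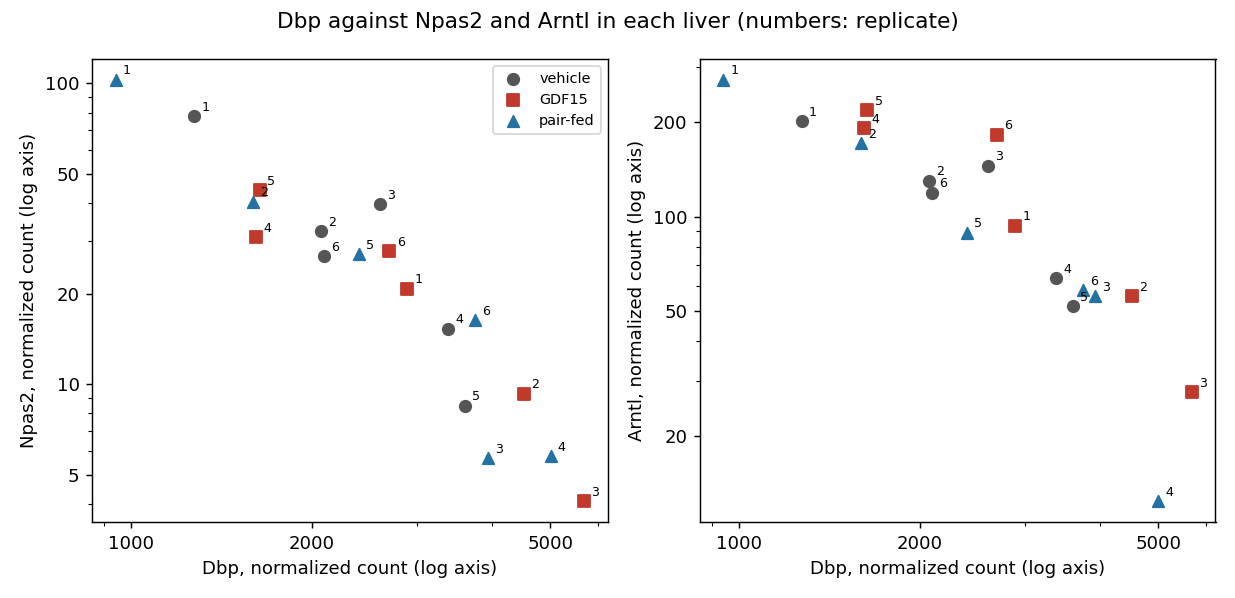
Dbp against Npas2 (left) and against Arntl (right) in each liver, as normalized counts on log axes, with the replicate number beside each point and groups by colour and shape. Points of the 3 groups lie along the same falling band, from pair-fed mouse 1 (941 Dbp, 103 Npas2) to GDF15 mouse 3 (5696 Dbp, 4.09 Npas2).

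Most of the clock genes tested outside the 10 lay on the same axis. Arntl, from 12.4 to 273 normalized counts over all mice, followed Npas2 (r = 0.93, rho = 0.96) and opposed Dbp (r = -0.92, rho = -0.92). Nfil3, the D-box repressor, opposed Dbp as well (r = -0.78, rho = -0.77, permutation p = 7.90e-04 and 7.20e-04). Cry2 (r = 0.90), Bhlhe41 (0.91), a repressor of E-box genes, Ciart (0.83), a repressor of the BMAL1 complex, and Hlf (0.73) ran with Dbp (rho from 0.69 to 0.88). All of these pairs had adjusted p values of at most 0.00847 over the 80 pairs. Usp2, a deubiquitinase with a strong liver rhythm, also ran with Dbp (r = 0.93, rho = 0.91). It was named after its values were seen, so its p is not given. Bhlhe40, the paralogue of Bhlhe41, did not pass, with an r of 0.50 with Dbp (rho = 0.59, permutation p = 0.0529 and 0.0165, adjusted p = 0.132) and of -0.47 with Npas2 (rho = -0.44, permutation p = 0.0723 and 0.0799, adjusted p = 0.165). Arntl2, a low-level paralogue of Arntl, had an r of 0.34 with Dbp, which was not tested.

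**Figure D5:**
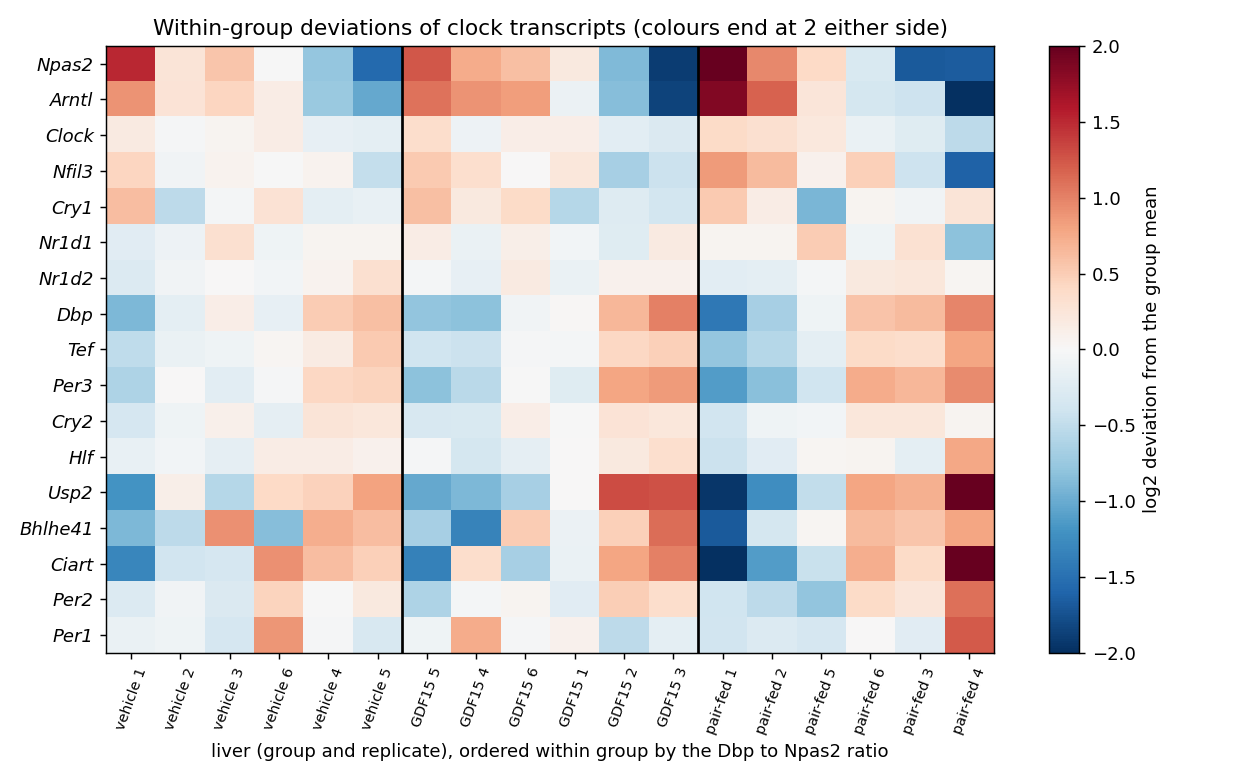
Deviation of each liver from its group mean (log2 scale, colours end at 2 either side) for clock and clock-linked genes, with livers ordered within each group by the Dbp to Npas2 ratio. Dbp and Npas2 set that order, so their own turns along each group largely follow from it. Arntl mostly turns from red to blue along each group, while Tef, Per3 and Usp2 mostly turn from blue to red. The Nr1d1 row is pale outside the pair-fed mice 4 and 5.

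Genes outside the clock with the most similar pattern were found over 10882 other genes whose normalized count averaged 50 or more. Besides Tef and Per3, the highest r with Dbp belonged to Gys2 (0.96), the liver glycogen synthase, Pcsk4 (0.95) and Slc2a9 (0.94), a urate transporter. The lowest belonged to Nedd4l (-0.95), a ubiquitin ligase, Mrtfb (-0.95), Chka (-0.94), choline kinase, and Dhrs9 (-0.94). For Npas2 the highest were Chka (0.96), Ypel2 (0.94), Clpx (0.93), Lgalsl (0.93) and Arntl (0.93), and the lowest were Dbp (-0.95), Stk35 (-0.94), Tef (-0.94), Slc5a6 (-0.94) and Usp2 (-0.93). In all, 243 genes had an r of at least 0.8 with Dbp and 160 of at most -0.8, together 3.70% of genes. For Nr1d1 these were 6 genes and 1 gene (0.0643%), led by Pim1 (0.86), a kinase, Camsap3 (0.84) and Wdr81 (0.83), with Avl9 and Mnt (0.81 each). At the other end of Nr1d1 were Lage3 (-0.81), Tubd1 and Rhobtb1 (-0.75 each), and Rrs1 and Slc25a32 (-0.74 each). The neighbours of Nr1d1 moved with the measure used. Their rho ran from 0.56 (Mnt) to 0.75 (Pim1) and from -0.57 (Rrs1 and Slc25a32) to -0.78 (Lage3). With deviations taken from the mean of all 18 mice in place of the group means, r was -0.10 for Rhobtb1, -0.00 for Slc25a32, -0.41 for Rrs1 and -0.65 for Lage3, whereas the weakest r named for Dbp was -0.84 (Dhrs9) and for Npas2 -0.79 (Slc5a6). These r are descriptions over 18 mice that share the libraries, and are given with no p since the genes were picked by them.

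Other clock genes were compared between groups as well. Of 11 further core clock genes, 1 was called higher with GDF15 (Cry2) and 1 lower (Arntl2) in both comparisons, beside 15.8% and 17.5% of all genes against vehicle and 13.3% and 13.8% against pair-fed mice. Cry2 had 1058 ± 186 normalized counts with GDF15, 781 ± 125 with vehicle and 816 ± 127 in pair-fed mice, a log2 difference of 0.44 ± 0.13 from vehicle (DESeq2 adjusted p = 0.00498) and 0.37 ± 0.13 from pair-fed mice (adjusted p = 0.0219). Arntl2 was at 10.4 ± 3.80 against 18.1 ± 4.75 and 18.7 ± 3.01, and its lowest liver, GDF15 mouse 5 (3.90), was at the detection floor. The median log2 difference of the 11 from vehicle was 0.24, and Arntl itself differed by 0.11 ± 0.60 (adjusted p = 0.914). Bhlhe40 was at 3097 ± 514 with GDF15, 2956 ± 510 with vehicle and 3513 ± 894 in pair-fed mice and was not called. Nfil3 was at 553 ± 164 with GDF15, 367 ± 72.9 with vehicle and 319 ± 152 in pair-fed mice, and neither difference passed with DESeq2 (adjusted p = 0.146 and 0.0510; edgeR called the latter at 0.0481). Of 12 modifiers of clock proteins, 1 was higher and 1 lower. Sirt1, a deacetylase that acts on BMAL1 and PER2, was higher with GDF15 (291 ± 28.2 against 231 ± 32.1 and 230 ± 18.4) and Fbxw11, a ubiquitin ligase subunit for PER proteins, was lower (672 ± 65.6 against 778 ± 34.3 and 788 ± 58.4), each in both comparisons.

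Some targets of the output factors and some rhythmic liver genes were called. Of 7 PAR bZip targets, 3 were called higher than with vehicle, where 15.8% of all genes were, and 1 higher than in pair-fed mice, where 13.3% were. They were Nr1i3 (the xenobiotic receptor CAR), Por (the P450 reductase) and Cyp2b10 against vehicle, and Cyp2b10 against pair-fed mice. Por had 8143 ± 3518 normalized counts against 4092 ± 759 in vehicle mice (0.99 ± 0.35, DESeq2 adjusted p = 0.0193), and among mice its deviations followed Dbp (r = 0.85, description over 18 mice). Cyp2b10 had 110 ± 108 against 17.9 ± 17.2 in vehicle and 14.2 ± 4.98 in pair-fed mice and did not follow Dbp closely (r = 0.19). Of 12 rhythmic liver outputs, 3 were higher (Elovl3, Lpin1 and Upp2) and 1 lower (Insig2) than with vehicle, beside 15.8% and 17.5% of all genes. Upp2, uridine phosphorylase, was at 7910 ± 2391 with GDF15 and 2178 ± 585 with vehicle, with all 6 GDF15 mice above every vehicle mouse. Lpin1 and Upp2 were also higher than in pair-fed mice.

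Among genes that report signals known to act on the liver clock, the calls of glucocorticoid targets were all higher with GDF15. Of 10 glucocorticoid targets, a list that includes Per1, 6 were called higher than with vehicle (Fkbp5, Tat, Mt1, Mt2, Dusp1 and Klf9) and 5 higher than in pair-fed mice (the same without Dusp1), where 15.8% and 13.3% of all genes were. Their median log2 differences were 0.96 and 1.07. Fkbp5, which feeds back on the glucocorticoid receptor, had 1641 ± 710 normalized counts with GDF15, 659 ± 126 with vehicle and 599 ± 273 in pair-fed mice. The summed level of the 10 genes was 30028 to 92008 with GDF15, 14148 to 29839 with vehicle and 13293 to 26671 in pair-fed mice. Tat made up much of these sums (13193 to 70252, 7174 to 20907 and 5992 to 16092). In Mt1 and Mt2, 4 of the 6 GDF15 mice exceeded every vehicle mouse, while GDF15 mice 5 and 6 did not. The other lists held calls in both directions or few calls, beside 15.8% of all genes higher and 17.5% lower than with vehicle. Of 12 fasting and feeding genes, Pck1 (gluconeogenesis) and Ppargc1a were higher and Pdk4 and Fgf21 lower than with vehicle, with the same calls and Igfbp1 higher against pair-fed mice. Of 10 temperature and heat shock genes, the cold-induced Rbm3 (671 ± 91.3 against 960 ± 187 with vehicle) and Hspb1 were lower with GDF15 in both comparisons and Hspa1a was lower than with vehicle. Of 10 immediate early genes, Junb and Ier2 were higher and Fosb, Jun and Atf3 lower than with vehicle, and Junb, Ier2 and Egr1 were higher and Fosb and Atf3 lower than in pair-fed mice. Between pair-fed and vehicle mice 0 genes of any of these lists were called. The part of these signals in the values of Cry1, Nr1d1 and Per1 was not tested.

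Markers of cell types moved with GDF15 too. Called higher were 5 of 7 hepatocyte markers in both comparisons, beside 15.8% and 13.3% of all genes. Their summed levels were 2194808 to 2567451 with GDF15, 1530002 to 1951821 with vehicle and 1403670 to 2114541 in pair-fed mice. Of 8 macrophage markers 5 were lower than with vehicle and 4 lower than in pair-fed mice, beside 17.5% and 13.8% of all genes (summed 2286 to 4636, 3463 to 7004 and 3269 to 5501). Of 8 stellate cell markers 7 and 6 were lower (4075 to 6131, 8037 to 13619 and 7315 to 11181), and of 6 cholangiocyte markers 6 and 1 (1030 to 2097, 2372 to 8649 and 2159 to 6026). Spp1, the only cholangiocyte marker called against pair-fed mice, made up most of the latter sums (821 to 1834, 2119 to 7908 and 1961 to 5502). Of 7 lymphocyte markers 2 and 3 were lower (146 to 297, 262 to 448 and 279 to 405). Of 8 endothelial markers Lyve1 was lower in both and Clec4g higher than with vehicle (2417 to 4335, 3108 to 4227 and 3501 to 4584). Their part in the rises of Cry1 and Nr1d1 was not tested.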

How the data were processed

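Liver RNA of 18 mice (vehicle, GDF15 and pair-fed, 6 each by the sample titles) was sequenced from directional libraries (NEBNext Ultra II). The authors trimmed reads with Trim Galore and quantified transcripts with Salmon (mm10 per the submitters' processing notes; versions and the transcript annotation are not given in the sources used here). They deposited estimated counts per gene as whole numbers, 16245 genes with a row total of at least 5. All 18 columns were used.

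Counts were fitted with DESeq2 1.42.0 (R 4.3.3) over all genes and 18 samples, with group as the factor, size factors from the median of ratios, the Wald test and Benjamini-Hochberg adjustment over all genes. edgeR 4.0.16 (TMM, quasi-likelihood), TMM size factors, a filter of 10 counts in 6 samples, the 12 samples compared, a replicate block and leave-one-out fits were alternatives. For r with other genes, Spearman rho and centring on all 18 mice were alternatives. Spread and r used log2(normalized count + 1). Permutation tests of r were two-sided and shuffled mice within groups. Coordinates, annotation and promoters were from GRCm38 references (GENCODE M21, RefSeq).

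Total counts were 16508864 to 35301853 per sample. Reads carry no molecular identifiers, so the floor of 3 counts covers counting error only. P values of group differences weigh them against the spread between the mice sampled, estimated per gene over the 3 groups together in the main fit. Permutation p values concern r and rho of deviations within groups. The members and lists were chosen with earlier results of these data known. Named were all members, core clock genes always (Arntl, Cry2, Bhlhe40, Bhlhe41, Ciart, Nfil3 and Hlf), up to 4 called genes per list, and the 5 highest and 5 lowest r for Dbp, Nr1d1 and Npas2, except genes that are not reported here. Further called genes of a list, and Usp2, were named after their values were seen.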

Additional observations from a re-analysis of the deposited data

Results flagged for a closer look

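In 3 of the 30 sets of 6 livers (10 genes in 3 groups), 1 liver lay far from the other 5 (gap to its neighbour over the range of the set past the 95% point of Dixon's test), where chance gives about 1.5 of 30. Per1 was at 937 normalized counts in vehicle mouse 6 (gap over range 0.821), while the other vehicle mice had 401 to 497. Per1 was at 1171 in pair-fed mouse 4 (0.846), while the other pair-fed mice had 382 to 504. Npas2 was at 103 in pair-fed mouse 1 (0.644), and the others of that group had 5.68 to 40.5.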

How the results depend on the processing

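For GDF15 against vehicle, 2 members were called. The count was 0 with the fold threshold added, 1 with edgeR (Cry1), 3 with the filter on low counts (Cry1, Nr1d1 and Tef), 3 with the replicate block (Per1, Cry1 and Nr1d1), 4 in the 12 samples compared (Per1, Cry1, Nr1d1 and Tef), and 1 to 3 with a mouse left out. It was 1 without vehicle mouse 1, 2 or 4 or GDF15 mouse 1, 3 or 6 (Cry1), and 1 without GDF15 mouse 5 (Tef). For GDF15 against pair-fed mice, 1 was called. The count was 0 with the fold threshold added, 2 with the replicate block, and 1 to 2 with a mouse left out, 2 being without pair-fed mouse 4. Pair-fed against vehicle gave 0 in every alternative, and the median SD of the members was 0.29, 0.37 and 0.58 in the vehicle, GDF15 and pair-fed groups after a variance-stabilizing transformation, beside 0.37, 0.41 and 0.61. The main fit did not treat mice of the same replicate number as pairs. The r of their deviations ran from -0.25 to 0.27 for GDF15 and vehicle and from -0.26 to 0.20 for GDF15 and pair-fed mice. For pair-fed and vehicle mice it ran from 0.04 to 0.60 (2, 3 and 4 of 6 over 0.1 in these comparisons). What the likeness of same-numbered control mice rests on was not tested. With the number as a block, Per1 was called against vehicle (0.56, adjusted p = 0.0171) and against pair-fed mice (0.60, adjusted p = 0.0117), beside the genes called without it. Log2 differences that changed sign were all uncalled. Against vehicle none did. Against pair-fed mice, with a mouse left out, Per3 was -0.08 to 0.32, Dbp -0.14 to 0.33 and Npas2 -0.84 to 0.25. For pair-fed against vehicle, the block gave Per1 -0.04, and Nr1d2 was -0.00 with edgeR, TMM and the block. With a mouse left out there, Clock was -0.10 to 0.08, Npas2 -0.81 to 0.43, Per1 -0.32 to 0.29 and Nr1d2 -0.05 to 0.07. The cause of these changes was not tested. Depth limits Npas2 most (4 to 96 raw counts), and with 6 mice per group and an SD of 1.28 its difference had an SE of 0.70.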
